A study of Danio rerio with 6 samples.

Results

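The serpins are a family of proteins with a common fold, most of which inhibit serine proteases. An inhibitory serpin offers an exposed reactive loop to its target protease. When the loop is cut, the serpin changes shape and traps the protease in a covalent complex, so that each molecule is used once. Vertebrate serpins are sorted into clades by letter. The liver secretes many of them into plasma, where they limit elastase, the clotting proteases, plasmin and the first proteases of complement. Others stay inside cells (clade B) or have no inhibitory role, such as the collagen chaperone of clade H.

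All rows of the deposited gene table whose name begins with serpin were taken, in lower or upper case, which gave 24 of 23354 genes. They lie on 13 chromosomes and fall into clades A (5 genes), B (6), C (1), D (1), E (3), F (3), G (1), H (3) and I (1). All 24 carry the serpin domain in the table's annotation, and all 24 carry its terms for serine protease inhibitor activity and for an extracellular location. Those terms are assigned to clade B and clade H genes too, so they do not separate secreted from intracellular members.

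RNA was sequenced from dissected liver of adult zebrafish, with 3 libraries of the capn3b-/- mutant and 3 of the wild type strain AB, a common laboratory line. The mutated gene encodes a calpain, a calcium-dependent cysteine protease. The labels name no allele, treatment, sex or age beyond the adult stage, and they do not say that mutant and wild type fish were siblings. They do not say either that libraries came from separate animals, so each p-value rests on a spread between samples that may be technical. Coordinates follow the deposited gene table; the submitters' processing notes name the build GRCz11.

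Values are FPKM, reads scaled by gene length and library depth, so levels can be compared between genes. The depth behind them was 16858409 to 19492592 reads per library. The mutated gene itself had 0.0181 FPKM in mutant replicate 3 and 0 in every other library, and checks no label. A gene was tested where it had at least 1 FPKM in at least 3 libraries, with limma on log2(FPKM + 1) and Benjamini-Hochberg adjustment over 11164 genes. At an adjusted p of 0.05, 11.4% of tested genes passed, 5.91% higher in the mutant and 5.45% lower. That total of 1268 genes was 516 without mutant replicate 1 and 536 without mutant replicate 2, and leaving out wild type replicate 1 or 2 gave 801 and 414. All log2 fold changes below refer to log2(FPKM + 1), where the added 1 shrinks the change of genes with low FPKM.

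The tissue label was checked with marker lists. All 10 hepatocyte markers were found and tested, with 1 higher and 0 lower (5 and 3 at an unadjusted p under 0.05, 2 and 1 with voom), and their summed level was 148643 to 153865 FPKM in mutant and 142514 to 154215 in wild type libraries. Over all tested genes 5.91% were higher and 5.45% lower. Of 13 tested macrophage markers 6 were higher (431 to 704 FPKM summed in the mutant, 262 to 448 in wild type), and of 7 tested neutrophil markers 5 were higher (61.7 to 499.8 against 20.8 to 119). The summed ranges of the macrophage and neutrophil lists overlapped between genotypes. Of 8 erythrocyte markers 7 were lower (179 to 200 against 343 to 407). Biliary markers had 2 of 6 higher (1073 to 1388 against 646 to 664). The thrombocyte list, with 6 markers found and 2 tested, had 1 lower (809 to 1040 against 754 to 811). Both ends of its summed range were higher in the mutant, so its call and its sum differ in direction. The muscle list had 1 of 1 tested higher (2.30 to 5.33 against 0.0335 to 0.325). None of the tested acinar pancreas (11; 259 to 936 against 271 to 1981), endothelial (5; 22.5 to 24.5 against 22.6 to 25.2) or stellate cell (4; 11.5 to 23.6 against 7.85 to 11.8) markers passed the test. At an unadjusted p under 0.05, and with voom, the acinar and endothelial counts were also 0, and for stellate cells 2 and 1 were higher. No marker was at 0 in all 6 libraries. In bulk liver, fewer cells of a type and less RNA per cell cannot be told apart.

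Serpin transcripts took a larger share of the liver's measured expression in the mutant. They made up 3.49%, 3.25% and 3.16% of all FPKM in the mutant, against 1.94%, 1.94% and 1.89% in wild type. All mutant libraries lay above all wild type libraries. The means were 3.30% ± 0.171 (SD, n = 3) and 1.92% ± 0.0285 (SD, n = 3), a ratio of 1.72, with an exact two-sided permutation p of 0.1, the smallest that 3 against 3 libraries can give. Most of the gap was serpina1l: leaving that gene out cut the difference from 1.38 to 0.44 percentage points.

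**Figure D1:**
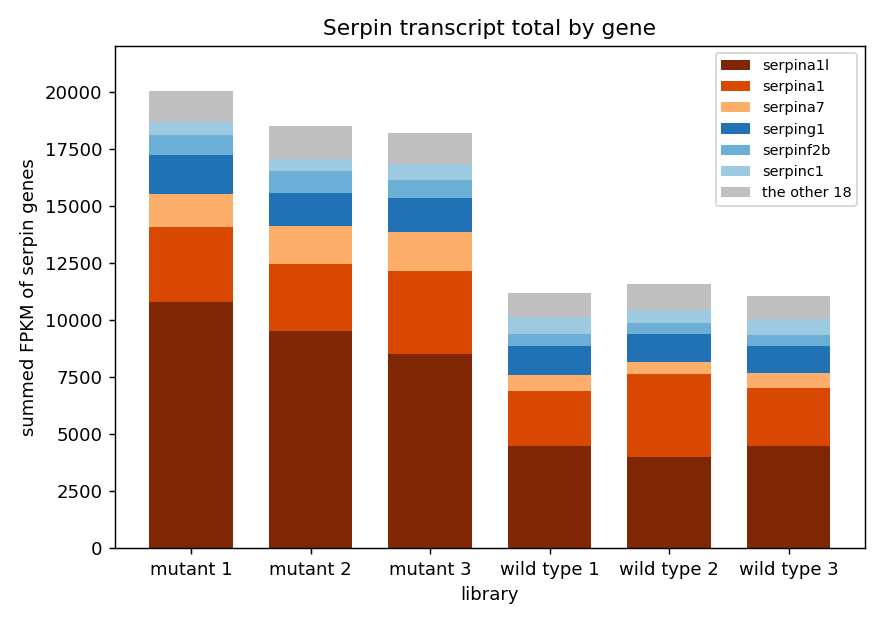
Summed FPKM of the 24 serpin genes in each library as stacked bars, with the 6 most abundant genes in colour and the other 18 in grey. The bars reach 18176 to 20024 FPKM in the mutant and 11068 to 11553 FPKM in wild type, and serpina1l is the largest block in all 6 libraries.

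Of the 24 genes, 17 passed the expression filter, each with at least 1 FPKM in a library of both genotypes, and 7 were too low to test. Of the 17, 6 were higher past the threshold (35.3%), where 5.91% of all tested genes were: serpina1l, serpina7, serpina10a, serpinb1, serpinb1l3 and serpinf2b. None was lower, where 5.45% of all tested genes were. At an unadjusted p under 0.05, 10 were higher and 0 lower, and limma voom on the recovered reads called 7 higher and 0 lower. Voom called 1386 of 11162 genes in all, 51.0% of them higher. No share over all genes was computed at an unadjusted p under 0.05, so such counts, here and for the marker and gene lists, have no background. Among tested genes with a mean of 100 FPKM or more, a range that holds several plasma serpins, 22.6% passed and 9.02% were higher. Of the 9 members above 100 FPKM in every library, a stricter cut, 3 were called higher. That cut leaves out serpinb1, whose wild type libraries were below 100 FPKM. The groups did not overlap in 10 of the 17 (58.8%), all with the mutant above, where 33.8% of all tested genes did not overlap, 19.1% with the mutant above and 14.7% with it below. The median log2 fold change of the 17 was 0.48, beside 0.05 over all tested genes. The count of 6 fell to 4 without mutant replicate 2. Of the 17 tested members 2 lie within 10 Mb of capn3b, serpinb1 and serpina10a. Of the 6 called, 4 lie outside that window, counted from the same fit.

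**Figure D2:**
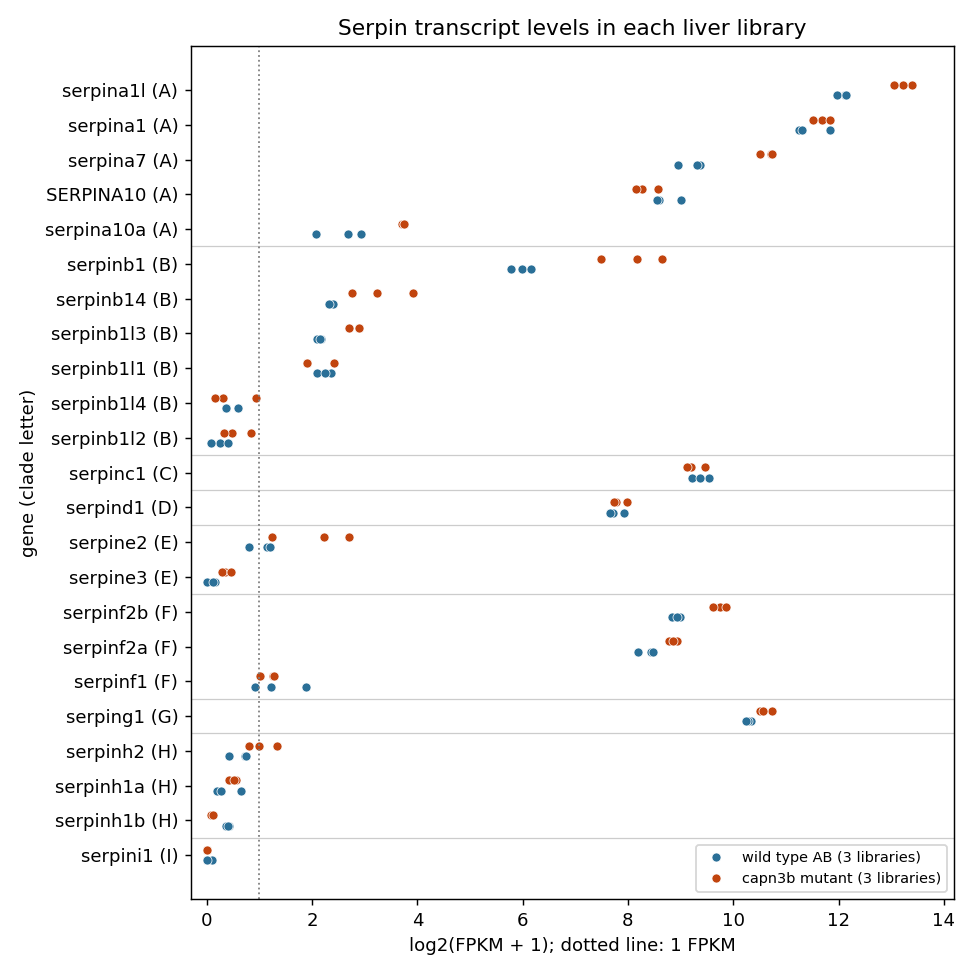
Level of each serpin gene reported here in every library, as log2(FPKM + 1), ordered by clade letter, with mutant and wild type libraries in different colours and a dotted line at 1 FPKM. Levels run from serpina1l, at 8506 to 10774 FPKM in the mutant, down to serpini1, at 0.0724 FPKM in wild type replicate 2 and 0 in every other library.

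Clade A holds the abundant plasma inhibitors. Of its 5 tested genes 3 were higher past the threshold and 0 lower, where 5.91% and 5.45% of all tested genes were. The median log2 fold change of the 5 was 1.15. The clade made up 78.5% ± 0.521 (SD, n = 3) of serpin FPKM in the mutant and 72.9% ± 1.95 (SD, n = 3) in wild type. The highest member was serpina1l (ENSDARG00000090850, chromosome 20, 10550785 to 10553957, plus strand), a homolog of alpha-1-antitrypsin, the main plasma inhibitor of neutrophil elastase. It measured 10774, 9522 and 8506 FPKM in the mutant libraries and 4479, 3998 and 4492 FPKM in the wild type libraries. Every mutant library was above every wild type library. It rose 2.22-fold, with a log2 fold change of 1.15 (SE 0.12, limma adjusted p = 0.00347), and it ranked 6 among all genes by mean FPKM in the mutant and 13 in wild type. Its call held in all 15 alternatives, with adjusted p from 0.00342 to 0.0494. The gene lies 15.5 Mb from capn3b, on the same chromosome.

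A second alpha-1-antitrypsin homolog, serpina1 (ENSDARG00000090286, chromosome 20, 10556860 to 10560171, plus strand), starts 2.90 kb after serpina1l ends. It measured 2936 to 3635 FPKM in the mutant and 2425 to 3646 FPKM in wild type, so the groups overlapped. Its log2 fold change was 0.22 (SE 0.18, 95% interval -0.20 to 0.63, limma adjusted p = 0.474). The copies are alike in name and annotation, and how reads that match both were counted is not given in the sources used here. Their sum does not depend on how such reads were split between the copies. It would still change if those reads were dropped or counted for both. The sum was 14069, 12458 and 12141 FPKM in the mutant and 6904, 7644 and 7030 in wild type. With the copies fitted as 1 gene the log2 fold change was 0.84 (SE 0.11, limma adjusted p = 0.00552). The ratio of serpina1l to serpina1 was 3.27, 3.24 and 2.34 in the mutant, against 1.85, 1.096 and 1.77 in wild type, with no overlap.

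The next gene to rise was serpina7 (ENSDARG00000087143, chromosome 5, 28220339 to 28232801, plus strand), which the table annotates as alpha-1-antiproteinase 2. The human gene of that name encodes thyroxine-binding globulin, a hormone carrier. It measured 1447, 1671 and 1703 FPKM in the mutant libraries and 663, 495 and 634 FPKM in the wild type libraries. The lowest mutant library stood well above the highest wild type library. It rose 2.69-fold, with a log2 fold change of 1.43 (SE 0.15, limma adjusted p = 0.00347), and the call held in all 15 alternatives. Its span overlaps ENSDARG00000090916 and zgc:174259, so reads may be shared. It sits among 5 further genes of the same annotation, and the 6 copies summed to 2543, 2674 and 3068 FPKM in the mutant and 1473, 983 and 1162 in wild type (log2 fold change 1.21, SE 0.17, limma adjusted p = 0.00669).

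The other clade A genes are annotated as protein Z-dependent protease inhibitor, which in mammals limits clotting factor X. The more abundant, written SERPINA10 in the table, measured 283 to 379 FPKM in the mutant and 373 to 515 in wild type, with a log2 fold change of -0.39 (SE 0.18, 95% interval -0.80 to 0.03, limma adjusted p = 0.203). The scarcer serpina10a (ENSDARG00000005924, chromosome 20, 27472304 to 27482616, minus strand) measured 12.1, 12.4 and 12.3 FPKM in the mutant and 5.38, 6.66 and 3.22 FPKM in wild type. The mutant libraries were nearly equal and all above the wild type ones. It rose 2.41-fold, with a log2 fold change of 1.17 (SE 0.22, limma adjusted p = 0.0168). The adjusted p became 0.053 without mutant replicate 1, 0.0542 without mutant replicate 2 and 0.0509 with no expression filter. Its span overlaps ppp4r4, and it lies 1.37 Mb from capn3b.

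Clade B serpins act inside cells, and the table annotates all 6 as leukocyte elastase inhibitor. Of 4 tested genes 2 were higher past the threshold and 0 lower, where 5.91% and 5.45% of all tested genes were. The most abundant was serpinb1 (ENSDARG00000055416, chromosome 20, 26981578 to 26987759, plus strand), whose mammalian counterpart protects neutrophils and other cells from their own granule proteases. It measured 288, 402 and 179 FPKM in the mutant libraries and 62.2, 53.6 and 70.7 FPKM in the wild type libraries. The mutant libraries differed among themselves more than 2-fold, yet the lowest was still above every wild type library. It rose 4.66-fold, with a log2 fold change of 2.14 (SE 0.28, 95% interval 1.49 to 2.78, limma adjusted p = 0.00582), and the call held in all 15 alternatives. The neutrophil and macrophage marker lists moved in the same direction, as given above. Their part in the serpinb1 result was not tested. The gene lies 0.879 Mb from capn3b. Of the tested genes within 10 Mb of capn3b 12.7% passed and 6.63% were higher, beside 11.4% and 5.91% of all tested genes. Position near the mutated gene and genotype cannot be told apart for serpinb1 and serpina10a. Farther off on the same chromosome 20, serpina1l and serpina1 lie 15.5 Mb from capn3b. Of the 6 members past the threshold, 3 are on this chromosome, which holds 5 of all 24 members. No share called over all genes of the chromosome was computed. For serpina1l too, position on the chromosome of the mutated gene and genotype cannot be told apart.

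The other clade B gene to rise was serpinb1l3 (ENSDARG00000014556, chromosome 24, 42226407 to 42236180, plus strand). It measured 6.40, 6.43 and 5.49 FPKM in the mutant libraries and 3.26, 3.47 and 3.42 FPKM in the wild type libraries. The groups were tight and did not overlap. It rose 1.80-fold, with a log2 fold change of 0.69 (SE 0.13, limma adjusted p = 0.0159). The adjusted p was 0.0531 without wild type replicate 2, 0.0629 without mutant replicate 1 and 0.0559 without mutant replicate 2. Its span overlaps rmdn1, and its start and end events are listed at 0 FPKM in all 6 libraries, at odds with the gene table.

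A chromosome 16 cluster holds serpinb14, serpinb1l1 and serpinb1l4. The longest, serpinb14 (51378011 to 51434832), measured 8.38, 14.05 and 5.74 FPKM in the mutant and 4.16, 4.24 and 4.005 FPKM in wild type. Its groups did not overlap, but the mutant libraries were spread. Its log2 fold change was 0.94 (SE 0.27, limma adjusted p = 0.0609). The adjusted p became 0.0212 without mutant replicate 3 and 0.0485 with limma voom, and ranged up to 0.152 in the other alternatives. Its span overlaps both others and zgc:173729, and the 4 copies summed gave a log2 fold change of 0.59 (SE 0.18, limma adjusted p = 0.0661). The gene serpinb1l1 ranged from 2.72 to 4.34 FPKM in the mutant and 3.29 to 4.11 in wild type (log2 fold change -0.16, SE 0.18, limma adjusted p = 0.597).

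Clades C and D hold the heparin-activated inhibitors of thrombin, and neither gene passed the test. Antithrombin, serpinc1 (ENSDARG00000042684, chromosome 22, 15995941 to 16001921), measured 583, 557 and 706 FPKM in the mutant libraries and 742, 590 and 662 FPKM in the wild type libraries. The groups overlapped, with a log2 fold change of -0.11 (SE 0.15, 95% interval -0.46 to 0.23, limma adjusted p = 0.671). Heparin cofactor 2, serpind1 (ENSDARG00000021208, chromosome 8, 1761000 to 1776527), measured 217, 212 and 251 FPKM in the mutant and 243, 210 and 202 FPKM in wild type. These also overlapped, with a log2 fold change of 0.05 (SE 0.14, 95% interval -0.27 to 0.38, limma adjusted p = 0.842). The interval of serpinc1 leaves out a rise of the size seen for serpina1l, and so does that of serpind1, whose span overlaps pi4kab.

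In clade E, no tested gene passed. The gene for glia-derived nexin, serpine2, an inhibitor of thrombin and urokinase, measured 1.37, 5.47 and 3.68 FPKM in the mutant and 0.754, 1.197 and 1.29 FPKM in wild type. Every mutant library was above every wild type library, with a wide spread in the mutant. Its log2 fold change was 1.01 (SE 0.34, limma adjusted p = 0.0969), and it was 0.69 without mutant replicate 2 (limma adjusted p = 0.246). It passed the threshold only without mutant replicate 1, at 1.41, among the 14 alternatives run for it.

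Clade F includes the plasmin inhibitor alpha-2-antiplasmin, present as a pair of genes. The more abundant, serpinf2b (ENSDARG00000061383, chromosome 15, 26608143 to 26619776, minus strand), measured 854, 933 and 780 FPKM in the mutant libraries and 504, 458 and 490 FPKM in the wild type libraries. The groups were far apart relative to their spread. It rose 1.77-fold, with a log2 fold change of 0.82 (SE 0.13, limma adjusted p = 0.00933), and the call held in all 15 alternatives. Its partner serpinf2a (ENSDARG00000076448, chromosome 21, 40068748 to 40081363, plus strand) measured 487, 437 and 459 FPKM in the mutant and 347, 292 and 356 FPKM in wild type. Its groups did not overlap either. The log2 fold change was 0.48 (SE 0.13, limma adjusted p = 0.0581), just outside the threshold. It was inside with a filter of 5 FPKM (0.0457) and with quantile normalization (0.0314), and the adjusted p ranged up to 0.178 in the other alternatives. Starting 1.53 kb after it, serpinf1, for pigment epithelium-derived factor, a non-inhibitory serpin, stayed at 1.004 to 1.42 FPKM in the mutant and 0.893 to 2.68 in wild type. Its log2 fold change of -0.16 (SE 0.25, limma adjusted p = 0.724) became 0.11 without wild type replicate 3.

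Clade G has 1 gene, serping1 (ENSDARG00000058053, chromosome 8, 13922950 to 13934921, minus strand), for the C1 inhibitor, which limits the first proteases of complement and plasma kallikrein. It measured 1708, 1449 and 1515 FPKM in the mutant libraries and 1293, 1248 and 1206 FPKM in the wild type libraries. The groups did not overlap. The ratio of means was 1.25 and the log2 fold change 0.32 (SE 0.12, 95% interval 0.04 to 0.59), which did not pass after adjustment (limma adjusted p = 0.129). Its span overlaps si:ch211-229n2.9.

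**Figure D3:**
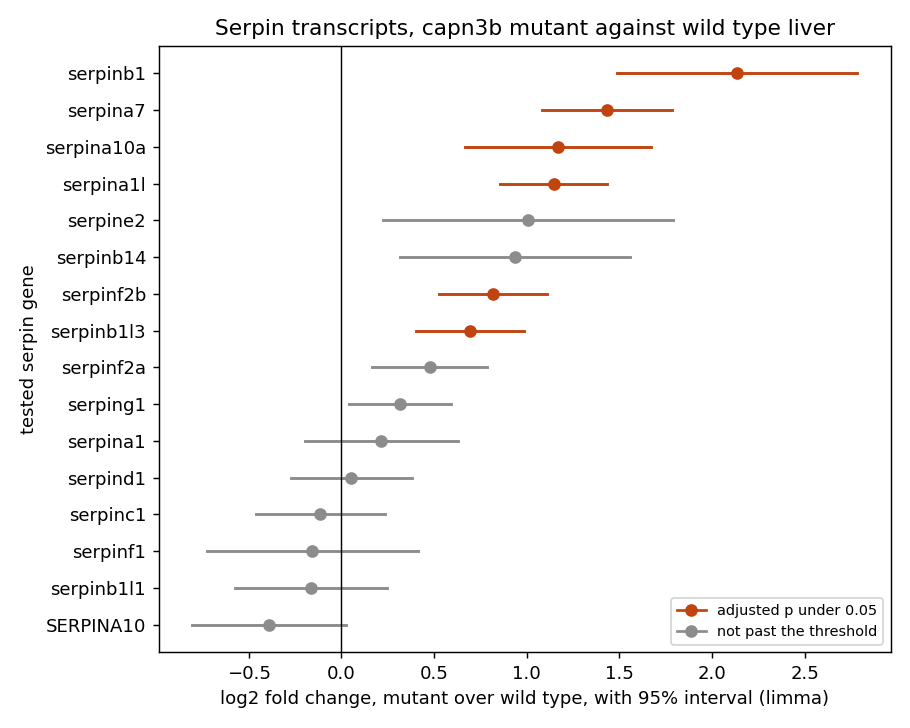
Log2 fold change of mutant over wild type on the log2(FPKM + 1) scale for the tested serpin genes reported here, ordered by size, with 95% intervals from limma and the genes past the threshold in orange. The 6 genes past the threshold all lie above 0, from serpinb1l3 at 0.69 to serpinb1 at 2.14, while the intervals of serpinc1 and serpind1 span 0.

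The 7 untested genes were below the expression filter, and reads are given for them. Clade H encodes an endoplasmic reticulum chaperone of collagen with no inhibitory role. Its most abundant member, serpinh2 (chromosome 7, 20829894 to 21046714), had 155, 102 and 80 reads in the mutant, against 74, 33 and 66 reads in wild type. The mutant libraries were all higher, with a ratio at equal depth of 1.92 (exact binomial 95% interval 1.597 to 2.32, counting error only). The following genes are named because their values were seen. For serpinh1b (chromosome 15, 29450292 to 29454673), reads were 5, 4 and 6 in the mutant and 24, 18 and 20 in wild type. It is the only serpin whose mutant libraries all lay below the wild type libraries, with a ratio of 0.239 (interval 0.126 to 0.425). With no expression filter its log2 fold change was -0.29 (SE 0.05, limma adjusted p = 0.0390), where 2.53% of all 23354 genes passed and 1.31% were lower. For serpine3, annotated as a probable serpin, reads were 13, 11 and 19 in the mutant and 6, 0 and 4 in wild type. The ratio was 4.25 (interval 2.102 to 9.48). As a ratio of mean FPKM it was 4.35, and it became 6.66 without wild type replicate 1 and 2.90 without wild type replicate 2. The clade B genes serpinb1l4 and serpinb1l2 and the clade H gene serpinh1a had 2 to 43 reads per library, with overlapping groups. Single libraries moved them: the ratio of mean FPKM of serpinb1l4 was 0.494 without mutant replicate 3, that of serpinb1l2 was 3.98 without wild type replicate 2, and that of serpinh1a was 2.35 without wild type replicate 1. Neuroserpin, serpini1, is the only clade I gene and in mammals an inhibitor of tissue plasminogen activator in neurons. It was at 0, 0 and 0 FPKM in the mutant and 0, 0.0724 and 0 FPKM in wild type. With a value in 1 library only, its reads and gene length cannot be separated. The recovery took the smallest whole length, which gives 1 read there and 0.192 to 0.222 FPKM for 3 reads.

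**Figure D4:**
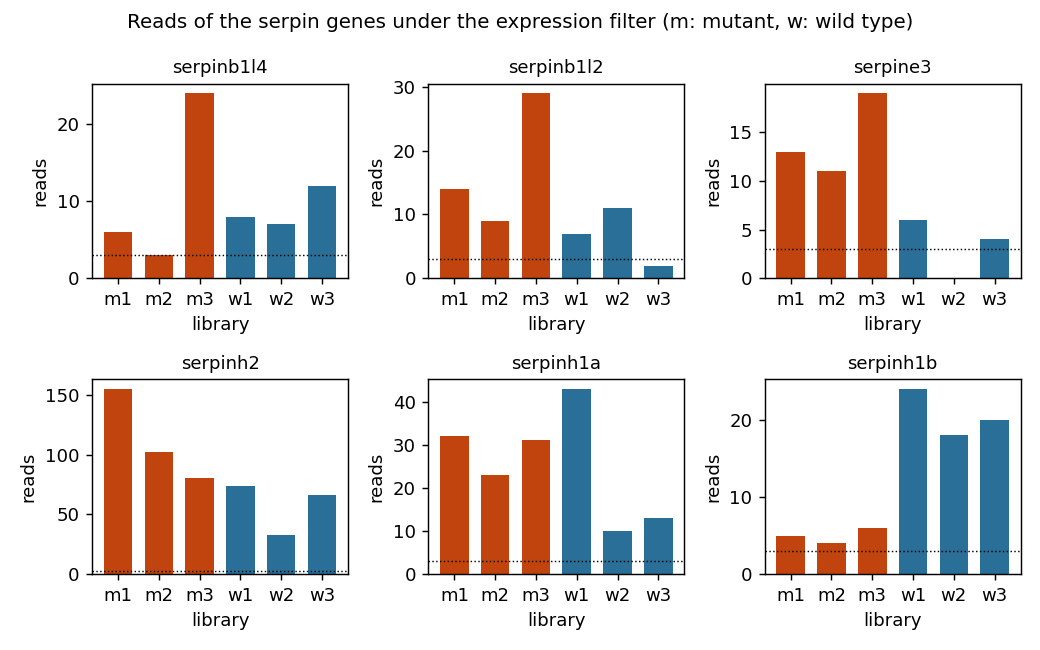
Recovered reads per library as bars for 6 of the 7 serpin genes below the expression filter (serpini1, with 1 read in all, is left out), mutant in orange and wild type in blue, with a dotted line at 3 reads. The reads of serpinh1b are 4 to 6 in the mutant and 18 to 24 in wild type, while those of serpinh2 are 80 to 155 and 33 to 74.

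A list of 45 genes held proteases together with cofactors, receptors and other clotting genes, and not all of these are serpin targets. Of the list 24 were tested, with 3 higher and 1 lower, where 5.91% and 5.45% of all tested genes were. The 3 higher genes are a cofactor, a factor XIII subunit and a receptor, not target proteases. At an unadjusted p under 0.05 the counts were 5 and 3, and with voom 4 and 1. The median log2 fold change of the list was 0.17. The largest rise among those named was pros1, for protein S, a cofactor of the anticoagulant protein C, at 44.0 ± 13.4 FPKM (SD, n = 3) in the mutant and 8.62 ± 1.80 (SD, n = 3) in wild type (log2 fold change 2.197, SE 0.25, limma adjusted p = 0.00443). Its span overlaps cul4a and gas6. A subunit of clotting factor XIII, f13a1b, rose by 1.205 on the log2 scale (limma adjusted p = 0.0115, and 0.0517 without wild type replicate 2), and its span overlaps si:dkey-185m8.2. The endocytic receptor gene lrp1ab, whose product clears serpin and protease complexes in mammals, measured 43.7 ± 6.45 and 23.5 ± 2.64 FPKM (SD, n = 3 each; log2 fold change 0.86, limma adjusted p = 0.0178). Its adjusted p was 0.0707 without wild type replicate 2, 0.0675 without mutant replicate 1 and 0.0597 without mutant replicate 2. The 1 lower gene was masp1 (log2 fold change -0.59, SE 0.15, limma adjusted p = 0.0445), named because its value was seen. Its call was lost in 7 of 15 alternatives, with adjusted p up to 0.137. Over the list, leaving out wild type replicate 2 cut the 4 calls to 1, and leaving out mutant replicate 1 or mutant replicate 2 cut them to 2. Prothrombin (f2) measured 791 FPKM in the mutant and 755 in wild type, plasminogen (plg) 1231 and 1094, and factor X (f10) 453 and 390, with limma adjusted p of 0.757, 0.423 and 0.299. These 3 targets are named after their values were seen.

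Inhibitors of other folds were listed for comparison. Of 22 tested genes on a list of 38, 0 were higher and 4 lower, where 5.91% and 5.45% of all tested genes were (1 and 7 at an unadjusted p under 0.05, 0 and 4 with voom), with a median log2 fold change of 0.19, so the median and the calls differ in direction. The fetuin gene ahsg2 measured 415 ± 50.8 FPKM in the mutant and 869 ± 90.5 in wild type (SD, n = 3 each; log2 fold change -1.07, limma adjusted p = 0.00617). The macroglobulin gene a2ml fell by 1.07 on the log2 scale (limma adjusted p = 0.0145, 0.0517 without wild type replicate 2 and 0.0546 without mutant replicate 1), and its span overlaps sb:cb37 and si:dkey-105h12.2. A phosphatidylethanolamine-binding protein gene, pebp1, fell by 1.34 (limma adjusted p = 0.0206). Its adjusted p was 0.0611 and 0.0603 without mutant replicates 1 and 2, 0.0784 and 0.0518 without wild type replicates 2 and 3, and 0.061 with no expression filter. The 4 calls became 1 without mutant replicate 1 or wild type replicate 2, and 2 without mutant replicate 2 or wild type replicate 3. On the list of 40 collagen and collagen-folding genes, 22 were tested, with 0 higher and 1 lower (5 and 3 at an unadjusted p under 0.05, 2 and 2 with voom), where 5.91% and 5.45% of all tested genes were, or 2 calls without wild type replicate 3. The lower gene was p4hb, a disulfide isomerase and subunit of the collagen hydroxylase, at 141 ± 12.6 FPKM in the mutant and 278 ± 30.3 in wild type (SD, n = 3 each; log2 fold change -0.98, limma adjusted p = 0.00830).

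The deposited transcript event lists, which give assembled starts, ends and splicing events, each with a transcript FPKM, held all 24 serpins in every library. They listed 76, 74 and 70 serpin events in the mutant, against 74, 71 and 73 in wild type, so the counts overlapped. Of these events, 35, 24 and 27 in the mutant and 29, 25 and 27 in wild type were at 0 FPKM. For serpinb1 the start carried 343, 480 and 210 FPKM in the mutant and 70.2, 64.7 and 84.4 FPKM in wild type, in the same order as the gene table within the mutant. The C1 inhibitor gene serping1 had a longer (13934813 to 13934921) and a shorter (13934817 to 13934921) first exon in 4 libraries. On the minus strand both begin at 13934921, and they differ by a few bases at the inner end. The shorter one took 12.3% and 14.6% of its start FPKM in mutant replicates 1 and 3, and 14.8% and 13.7% in wild type replicates 1 and 3. The starts of serpina1l and serpina1 were listed apart in every library except wild type replicate 3, where the genes were joined into 1 assembled locus. The serpina1l start carried 12181, 10680.2 and 9621 FPKM in the mutant and 5141 and 4501 FPKM in wild type replicates 1 and 2. The serpina7 locus was joined to its neighbours in every library, so the event lists do not separate those copies.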

How the data were processed

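Livers of adult zebrafish were profiled by RNA sequencing in 6 libraries, 3 per genotype. The authors deposited FPKM values per gene and, per library, transcript events with FPKM. Per the submitters' processing notes the build was GRCz11 and DESeq2 was among their tools; for the aligner, counter, annotation and strand setting, nothing is stated in the sources used. Members and gene lists were chosen with earlier results of these data known. The text gives values per library for members past the threshold, for the most abundant member of each clade and for the 3 tested members nearest outside the threshold, and up to 3 genes past it from each list. A gene that this rule names is not reported here; it stays in the counts and sums.

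The 11164 genes that reached 1 FPKM in 3 or more libraries were fitted with limma 3.58.1 (R 4.3.3) on log2(FPKM + 1), using trend moderation and two-sided tests. P-values were adjusted by Benjamini-Hochberg across those genes, with 0.05 as the threshold. SDs are between the 3 libraries of a group. Deposited FPKM are whole multiples of 1 read's worth: 99.991% of genes gave whole reads in every library within 0.05 reads, and 2 rows did not. Recovered reads give depth, 95% exact binomial intervals and a floor of 3 reads, which cover counting error only, and an added limma voom fit. On data simulated with the same spread for all genes, the fit recovered 80.8% of 2-fold and 100% of 4-fold changes. Of its calls there, 6.25% were false. That setting does not cover genes with a wide spread between libraries, such as serpinb1 and serpine2. Shares were compared with exact permutation tests (scipy 1.17.1). Alternatives were each library left out, other filters and moderation, quantile normalization, median scaling, a replicate block and a pseudocount of 0.1. Voom, summed neighbouring copies and leaving out genes within 10 Mb of capn3b were added after seeing the data. All 24 identifiers matched the gene name table.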

Additional observations from a re-analysis of the deposited data

How the results depend on the processing

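Of 252 values of single serpin genes under the alternatives, 238 kept their direction and side of the threshold, 6 lost the call, 5 gained it and 3 changed sign. The sign changes were serpind1, at -0.0174 with median scaling and from -0.0203 to 0.134 with each library left out, and serpinf1, from -0.365 to 0.115 with each library left out; neither passed the test in any of these. The count of serpins higher past the threshold was 4 to 7 with each library left out, 5 with no expression filter and 7 with voom, and with no expression filter 1 was lower. With no expression filter 592 genes passed in all and the median serpin log2 fold change was 0.29. With each library left out 414 to 1134 genes passed. Genes of the target protease and cofactor list past the threshold numbered 1 to 4, other inhibitors 1 to 5 and collagen genes 1 to 2 with each library left out. Other inhibitors numbered 2 with no expression filter, and collagen genes 2 with median scaling, 2 with quantile normalization and 4 with voom. The cause of these shifts was not tested, except that leaving out a library removes a replicate and dropping the filter adds genes to the adjustment.

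Libraries of the same number did not deviate together (correlations of -0.045, -0.0096 and -0.083), and the labels name no pairing. These correlations cannot tell whether such libraries were prepared together. With the replicate block 6 serpins were higher and 950 genes passed in all. On the target protease and cofactor list 2 genes passed, and 3 collagen genes did. The serpin share gave a sign permutation p of 0.25, the smallest that 3 pairs can give. The adjusted p of lrp1ab and of zgc:174259 was then 0.0502. The difference in serpin share was 1.28 to 1.45 percentage points with each library left out and 1.40 without mitochondrial genes. Members with few reads are limited by counting error.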

Other observations

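Genes with a serpin domain in the table's annotation but another name numbered 9, and they were not counted above. Angiotensinogen (agt, chromosome 13, 23857992 to 23866391), the serpin-fold precursor of the angiotensin peptides and not an inhibitor, measured 578, 644 and 420 FPKM in the mutant libraries and 246, 234 and 271 FPKM in the wild type libraries. Its groups did not overlap. The log2 fold change was 1.11 (SE 0.18, limma adjusted p = 0.0109), with 0.0501 without wild type replicate 2, and its span overlaps cog2.

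The neighbours of serpina7 carry the same annotation, alpha-1-antiproteinase 2. Of these, ENSDARG00000091800 measured 539 ± 89.8 FPKM in the mutant and 253 ± 48.5 in wild type (SD, n = 3 each; log2 fold change 1.09, limma adjusted p = 0.0126, and 0.0537 without wild type replicate 2). The gene zgc:174259, whose span overlaps serpina7, measured 334 ± 41.7 and 162 ± 63.9 FPKM (SD, n = 3 each; log2 fold change 1.096, limma adjusted p = 0.0346). Its adjusted p was 0.0795 to 0.0856 with any 1 mutant library left out, 0.108 without wild type replicate 2, 0.0818 without wild type replicate 3 and 0.0901 with no expression filter. The values of ENSDARG00000077960 and ENSDARG00000074712 overlapped between groups, with log2 fold changes of 0.68 and 0.33 (limma adjusted p = 0.143 and 0.542; for the first, 0.0197 without wild type replicate 1). The other 4 genes were below the expression filter. Among them is ppp4r4, annotated as a phosphatase regulatory subunit, whose span overlaps serpina10a.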
